A study of Mus musculus with 20 samples.

Results

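The genes described here are 8 genes that make cholesterol or move it out of cells, chosen by symbol from the 47069 Ensembl genes counted in mouse kidney. They are the synthesis enzymes Hmgcs1, Idi1, Fdft1, Sqle and Lss, the regulators Srebf2 and Insig1, and the efflux transporter Abca1. All 8 were among the 17622 genes with enough reads to be tested. RNA came from kidneys of 20 male F1 hybrid mice (129SJ x C57Bl/6J) sacrificed at 15 weeks of age, 5 WT and 15 Col4a3-/-. Col4a3-/- mice lack a collagen IV chain of the glomerular basement membrane and are a model of Alport syndrome. From 5 weeks of age, 6 Col4a3-/- mice received PBS subcutaneously every week (Veh), 6 received the anti-miR-21 oligonucleotide Lademirsen at 50 mg/kg every week by the same route (Anti-miR-21), and 3 drank the ACE inhibitor ramipril at 11 mg/L in their water (ACEi), with PBS injections as well by the study's methods. The library sheet gives the ramipril dose as 4 mg/kg instead. WT mice were untreated, so that genotype and PBS injection cannot be told apart between WT and Veh, and both treated groups carried the Col4a3 deletion. The allele is constitutive, carried by every cell and not confined to 1 cell type.

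Cholesterol is built from acetyl-CoA through mevalonate, isoprenoids and squalene. The transcription factor SREBP-2, the product of Srebf2, is held in the endoplasmic reticulum by Scap and the Insig proteins when sterols are plentiful, and reaches the nucleus to switch on the synthesis enzymes when sterols are scarce. In the opposite state, oxysterols activate the LXR receptors, which switch on efflux genes such as Abca1. The comparisons ask how these genes stood in diseased kidneys, and where each treatment left them.

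The totals of estimated counts were even, between 28474301 and 29479629 per mouse with a median of 29026772, and values are given as CPM (counts relative to the library total after TMM scaling) unless FPKM is named. The TMM factors differed by group, at 0.771 to 0.85 in WT, 1.12 to 1.26 in Veh, 0.881 to 1.04 in Anti-miR-21 and 0.976 to 1.05 in ACEi. The sizes of differences from WT or Veh thus depend on this scaling. In the label check, Col4a3 lay between 194 and 238 CPM in WT and between 27.9 and 74.9 CPM in the 15 Col4a3-/- mice, without overlap. Kidney markers were present in every mouse, although the extraction text of the labels names adipose tissue. Summed proximal tubule markers (6 genes, none at 0 in every mouse of a group) were 12400 to 15900 CPM in WT, 1570 to 4110 in Veh, 6900 to 11400 in Anti-miR-21 and 6970 to 9090 in ACEi. The 6 macrophage markers summed to 140 to 154, 817 to 998, 341 to 518 and 450 to 532 CPM in the same order, and the 6 fibroblast markers to 149 to 369, 2450 to 3010, 628 to 1250 and 1330 to 1470. Adipocyte markers (5 genes) summed to 351 to 410 CPM in Veh mice A1, A4 and A9 and 224 in Anti-miR-21 mouse A12, and to at most 56.0 in the other mice. In whole kidney, fewer cells of a type and less RNA per cell cannot be told apart, and the part of these markers in the results below was not tested.

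Veh kidneys held less message for most of the synthesis enzymes and more for the transporter. Of the 8 genes, Veh mice had 5 lower and 1 higher than WT by edgeR's quasi-likelihood test (adjusted p under 0.05), against 34% of all genes lower and 39% higher, or 73% in either direction. Ranges of Veh and WT did not overlap for 6 of the 8, against 54.9% of all genes. Anti-miR-21 mice had 5 of the 8 higher and 1 lower than Veh (28.8% and 30.5% of all genes, 59.2% in either direction). ACEi mice had 2 higher and 1 lower than Veh (21% and 19.1% of all genes, 40.1% in either direction). Ranges did not overlap for 4 of the 8 in Anti-miR-21 and 3 of the 8 in ACEi (36.4% and 38.6% of all genes). Both treatments are set against the same 6 Veh mice. Against WT, Anti-miR-21 mice had 1 of the 8 higher and 4 lower (23.9% and 19.8% of all genes, 43.7% in either direction), with 3 of the 8 not overlapping (23.8%). ACEi mice had 1 higher and 7 lower than WT (25.2% and 22.5%, 47.7% in either direction), with 7 not overlapping (46.1%). With so many genes called in these comparisons, the counts of members say little by themselves, and the sizes of the changes are given gene by gene.

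**Figure D1:**
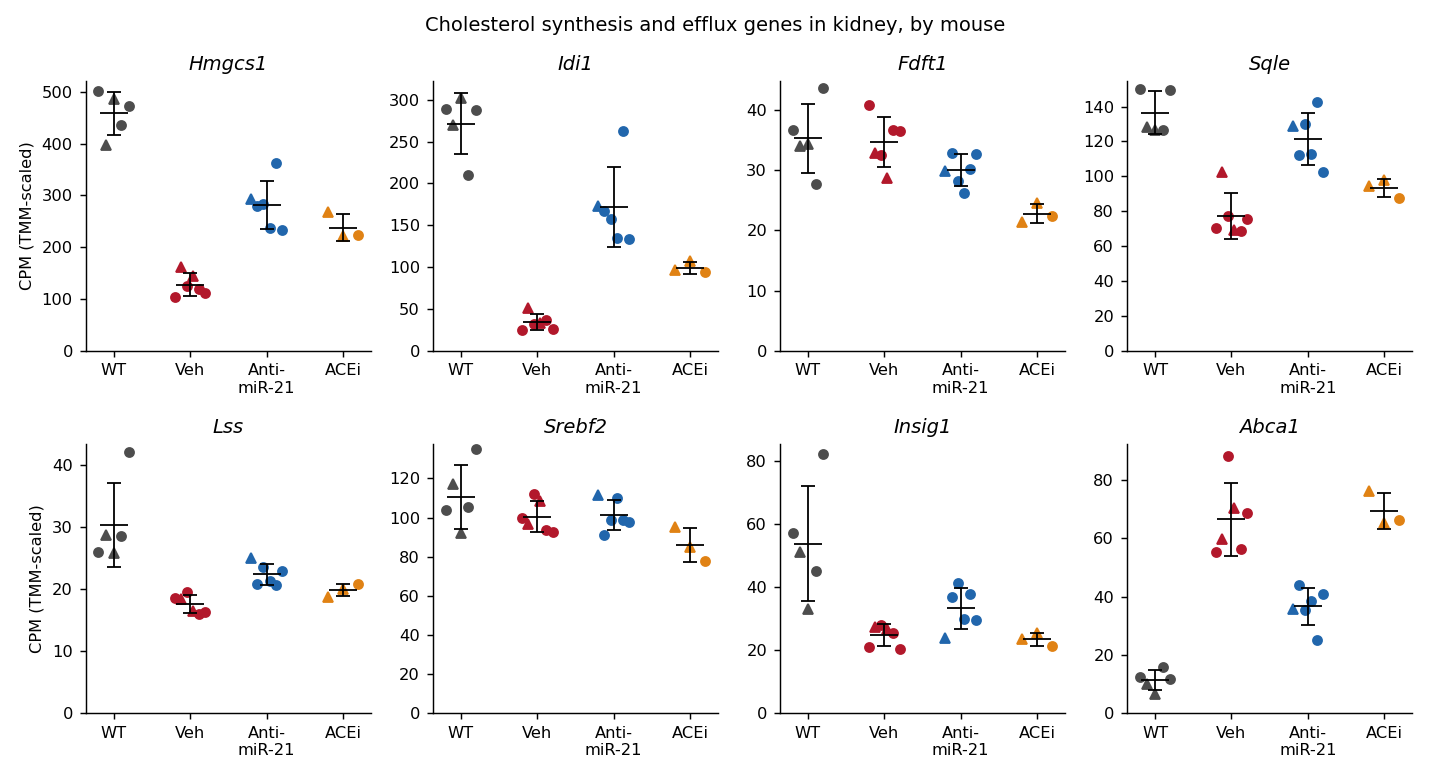
CPM (vertical axes from 0, TMM-scaled) of the 8 genes in each of the 20 mice, by group, with circles for flow cell A, triangles for flow cell B, and bars at the mean ± SD. Hmgcs1 and Idi1 in every Anti-miR-21 and ACEi mouse lay above every Veh mouse, while Abca1 in the 3 ACEi mice lay among the Veh mice.

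Hmgcs1 encodes the cytosolic HMG-CoA synthase at the head of the mevalonate pathway and lies at chr13:119690462-119708077 on the plus strand (GRCm38). The 5 WT mice had 397, 435, 472, 486 and 501 CPM. Veh mice ran from 103 to 161 CPM (median 122), Anti-miR-21 mice from 234 to 362 (median 281), and the ACEi mice had 222, 224 and 267. WT and Veh did not overlap with each other or with the treated groups, which lay between them and overlapped with each other. Hmgcs1 was thus 3.60-fold lower in Veh than in WT (log2 -1.85 ± 0.12 SE, adjusted p = 5.6e-11), 2.21-fold higher in Anti-miR-21 than in Veh (log2 1.14 ± 0.12, adjusted p = 1.2e-07) and 1.87-fold higher in ACEi than in Veh (log2 0.90 ± 0.14, adjusted p = 4.7e-05). It stayed below WT in Anti-miR-21 by 0.70 and in ACEi by 0.95 on the log2 scale (adjusted p = 9.1e-05 and 3.5e-05).

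Idi1, isopentenyl-diphosphate isomerase, makes the isoprenoid building blocks interchangeable, and lies at chr13:8885606-8892396 on the plus strand. Its fold changes in the 3 comparisons with Veh were the largest of the 8. WT mice had 210, 269, 288, 289 and 303 CPM and Veh mice 24.5 to 51.1 (median 32.6), 7.98-fold lower (log2 -3.0 ± 0.19, adjusted p = 2.8e-11). Anti-miR-21 mice had 133 to 263 CPM (median 162), which was 5.04-fold above Veh (log2 2.33 ± 0.18, adjusted p = 2.3e-08). The 3 ACEi mice had 94.1, 96.2 and 107 CPM, 2.91-fold above Veh (log2 1.54 ± 0.20, adjusted p = 1.7e-05). Every Anti-miR-21 mouse was thus above every ACEi mouse. The direct test of that difference (log2 0.79 ± 0.21) missed the threshold with an adjusted p of 0.091, and DESeq2 gave 0.015. It was 0.015 to 0.14 over 11 alternatives that kept every mouse or left out several, and 0.055 to 0.38 when 1 mouse was left out, highest without ACEi mouse A23. Anti-miR-21 mouse A22, the highest at 263 CPM, also had the highest proximal tubule sum of its group at 11400 CPM, and Veh mouse A16, at 51.1 CPM, the highest of its group at 4110. ACEi mouse A13, the highest of its group at 107 CPM, likewise had the highest sum of its group at 9090 CPM. In WT it was the other way, as mouse A3, with the highest sum at 15900 CPM, had the lowest Idi1 at 210 CPM. WT mouse A18 had the lowest sum at 12400 CPM and the highest Idi1 at 303 CPM.

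Fdft1, squalene synthase, commits isoprenoids to sterols. It lies at chr14:63145150-63179578 on the minus strand. WT mice had 27.7, 34.1, 34.3, 36.7 and 43.7 CPM, Veh mice 28.7 to 40.9 (median 34.7) and Anti-miR-21 mice 26.2 to 32.9 (median 30.1), and these groups overlapped. The ACEi mice, at 21.4, 22.4 and 24.6 CPM, were below every mouse of the other groups. Fdft1 did not pass the test in Veh against WT (log2 -0.03 ± 0.10, adjusted p = 0.83) or in Anti-miR-21 against Veh (log2 -0.21 ± 0.09, adjusted p = 0.065), and was lower in ACEi than in Veh (log2 -0.61 ± 0.12, adjusted p = 0.00053). For Anti-miR-21 against Veh, 7 of 12 alternatives called Fdft1 lower (log2 -0.55 to -0.07, adjusted p 0.00012 to 0.64). On library totals without TMM scaling it was higher in Veh than in WT (log2 0.56), where the median of all genes also stood at 0.65. With limma on log2(FPKM + 1) and log2(FPKM + 0.1), Fdft1 was also called higher in Veh (log2 0.52 and 0.57). The medians of all FPKM entries were lower there, at 0.22 and 0.43. Exons of the lysosomal protease gene Ctsb on the opposite strand cover 774 of its 3698 exon bases (20.9%), and Ctsb averaged 850 ± 47 CPM in WT (SD, n = 5) and 1200 ± 55 in Veh (SD, n = 6). Whether the counting used strand is not given in the sources used here. Reads of the shared stretch thus cannot be told apart in any group, and the ACEi to Veh call of Fdft1 carries this limit too. Ctsb was looked up after the values of Fdft1 were seen.

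Sqle, squalene epoxidase, carries out the first oxygen-dependent step of sterol synthesis and lies at chr15:59315092-59331193 on the plus strand. WT mice had 127, 127, 128, 150 and 150 CPM and Veh mice 68.6 to 103 (median 73.0), without overlap. Anti-miR-21 mice had 102 to 143 CPM (median 121) and reached the WT range, and the ACEi mice had 87.6, 94.2 and 97.8. Sqle was lower in Veh than in WT (log2 -0.82 ± 0.10, adjusted p = 3.7e-07) and higher in Anti-miR-21 than in Veh (log2 0.65 ± 0.10, adjusted p = 1e-05), where the ranges touched through Veh mouse A16 alone. In ACEi the difference from Veh was log2 0.27 ± 0.12 (adjusted p = 0.073), and 0.40 (adjusted p = 0.0022) without Veh mouse A16. Against WT, Anti-miR-21 mice were at log2 -0.17 ± 0.10 (adjusted p = 0.19) and ACEi mice at -0.55 ± 0.13 (adjusted p = 0.0013). The ACEi to WT call of Sqle was lost on library totals (log2 -0.24, adjusted p = 0.068) and with limma on log2(FPKM + 1) or log2(FPKM + 0.1) (adjusted p = 0.088 and 0.10). The other 2 calls held on library totals at smaller sizes, log2 -0.24 for Veh against WT (adjusted p = 0.016) and 0.31 for Anti-miR-21 against Veh.

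Lss, lanosterol synthase, closes the first sterol ring system. It lies at chr10:76531627-76553934 on the plus strand, and an antisense transcript (4930483K19Rik) shares 8.16% of its exon bases. The WT mice had 26.0, 26.1, 28.6, 28.9 and 42.2 CPM, and Veh mice had 15.98 to 19.5 (median 17.6). Anti-miR-21 mice had 20.8 to 25.1 CPM (median 22.2) and ACEi mice 18.9, 20.2 and 20.8. WT, Anti-miR-21 and Veh thus formed 3 separate ranges. Lss was lower in Veh than in WT (log2 -0.78 ± 0.10, adjusted p = 8.1e-07) and higher in Anti-miR-21 than in Veh (log2 0.35 ± 0.10, adjusted p = 0.0047), and in ACEi it was at log2 0.18 ± 0.12 from Veh (adjusted p = 0.25). On library totals alone the Veh to WT difference of Lss was -0.20 (adjusted p = 0.12, the highest of 12 alternatives, with 1.5e-12 the lowest) and the Anti-miR-21 to Veh difference 0.01 (adjusted p = 0.92, the highest, with 0.0006 the lowest), with the medians of all genes at 0.65 and -0.38. The Anti-miR-21 to Veh call of Lss held in 9 of 12 alternatives. It was also lost with limma on log2(FPKM + 1) and log2(FPKM + 0.1) (log2 0.04 for both, adjusted p = 0.80 and 0.79). The medians of all FPKM entries were -0.13 and -0.26 there.

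Srebf2, the gene of SREBP-2 itself, lies at chr15:82147269-82204960 on the plus strand. WT mice had 91.9, 104, 106, 117 and 135 CPM, Veh mice 92.4 to 112 (median 98.2), Anti-miR-21 mice 91.2 to 111 (median 98.8) and ACEi mice 77.6, 84.9 and 95.1. All 4 groups overlapped. No comparison with Veh passed the test, with log2 -0.14 ± 0.09 for Veh against WT (adjusted p = 0.16), 0.01 ± 0.08 for Anti-miR-21 against Veh (adjusted p = 0.92) and -0.23 ± 0.10 for ACEi against Veh (adjusted p = 0.085). Against WT, Srebf2 was lower in ACEi (log2 -0.36 ± 0.11, adjusted p = 0.0079), a call that was lost without ACEi mouse A23 (adjusted p = 0.068), on library totals (log2 -0.05, adjusted p = 0.76) and with limma at either pseudocount (log2 -0.11, adjusted p = 0.64 and 0.63). For ACEi against Veh, 4 of 11 alternatives called Srebf2 lower, with adjusted p of 0.024 by upper-quartile scaling, 0.043 and 0.047 with limma and 0.0043 on library totals. On library totals alone it was called higher in Veh than in WT (log2 0.44) and lower in both treated groups than in Veh (log2 -0.33 and -0.50), each beside a median of all genes that was displaced the same way (0.65, -0.38 and -0.32).

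Insig1, which anchors the SREBP complex in the endoplasmic reticulum and is itself a target of SREBP-2, lies at chr5:28071412-28078662 on the plus strand. WT mice were the most spread of the 4 groups, at 33.1, 45.1, 51.1, 57.1 and 82.3 CPM. Veh mice had 20.3 to 28.0 (median 26.1), Anti-miR-21 mice 23.9 to 41.2 (median 33.5) and ACEi mice 21.4, 23.6 and 25.5. Insig1 was lower in Veh than in WT without overlap (log2 -1.11 ± 0.17, adjusted p = 7.8e-06), and at -0.54 on library totals (adjusted p = 0.0064). The rise in Anti-miR-21 over Veh was small, with overlapping ranges (log2 0.42 ± 0.17, adjusted p = 0.035), and was not called without Veh mouse A1 or A9 or without Anti-miR-21 mouse A12, A15 or A22 (adjusted p 0.061 to 0.09), nor on library totals, where it was 0.07, and the adjusted p was 0.0092 to 0.80 over 12 alternatives, 6 of which called it. On flow cell B the single Anti-miR-21 mouse was below the mean of the Veh mice (log2 -0.18), against 0.57 on flow cell A. ACEi mice did not differ from Veh past the threshold (log2 -0.08 ± 0.21, adjusted p = 0.79), and both treated groups were below WT (log2 -0.69 ± 0.17 and -1.19 ± 0.22, adjusted p = 0.0032 and 0.00018).

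Abca1 encodes the pump that hands cholesterol and phospholipid to apolipoprotein A-I, and lies at chr4:53030789-53159895 on the minus strand. It went the other way from the enzymes. WT mice had 6.80, 10.2, 11.7, 12.4 and 16.1 CPM and Veh mice 55.3 to 88.4 (median 64.2), 5.83-fold higher (log2 2.54 ± 0.18, adjusted p = 1.6e-10). Anti-miR-21 mice had 25.2 to 44.1 CPM (median 37.2), below every Veh mouse and above every WT mouse (log2 -0.86 ± 0.16 against Veh, adjusted p = 9.7e-05, and 1.68 ± 0.18 against WT, adjusted p = 2.7e-07). The ACEi mice had 65.3, 66.2 and 76.4 CPM, within the Veh range (log2 0.06 ± 0.19 against Veh, adjusted p = 0.83).

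Abca1 was also the single member that passed the direct test of Anti-miR-21 against ACEi, where 0.584% of all genes did (0.221% lower and 0.363% higher in Anti-miR-21). The difference was log2 -0.92 ± 0.19 (adjusted p = 0.026). No Anti-miR-21 mouse overlapped with an ACEi mouse for Abca1, Idi1, Fdft1 or Sqle, 4 of the 8 genes, against 8.99% of all genes. The adjusted p of Abca1 was 0.00093 to 0.061 over the alternatives other than leaving out 1 mouse. It rested on few mice, since the call was lost without any 1 of ACEi mice A11, A13 and A23 or Anti-miR-21 mice A10, A15 and A22 (adjusted p 0.05 to 0.15), while the log2 difference stayed between -0.98 and -0.83. It was -0.85 within flow cell A (5 Anti-miR-21 mice and 1 ACEi mouse) and -0.99 within flow cell B (1 Anti-miR-21 mouse and 2 ACEi mice). Each of these 2 values thus rests on 1 mouse on 1 side. The macrophage marker sums of the treated groups, at 341 to 518 and 450 to 532 CPM, overlapped, and 1 of the 6 markers, Mrc1, was called lower in Anti-miR-21 (log2 -0.87 ± 0.18, adjusted p = 0.03) without overlap. The fibroblast sums, at 628 to 1250 and 1330 to 1470 CPM, did not overlap and were lower in Anti-miR-21, as Abca1 was, with none of the 6 fibroblast markers called. The part of these cells in the Abca1 difference was not tested. Mrc1 was named after its values were seen.

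**Figure D2:**
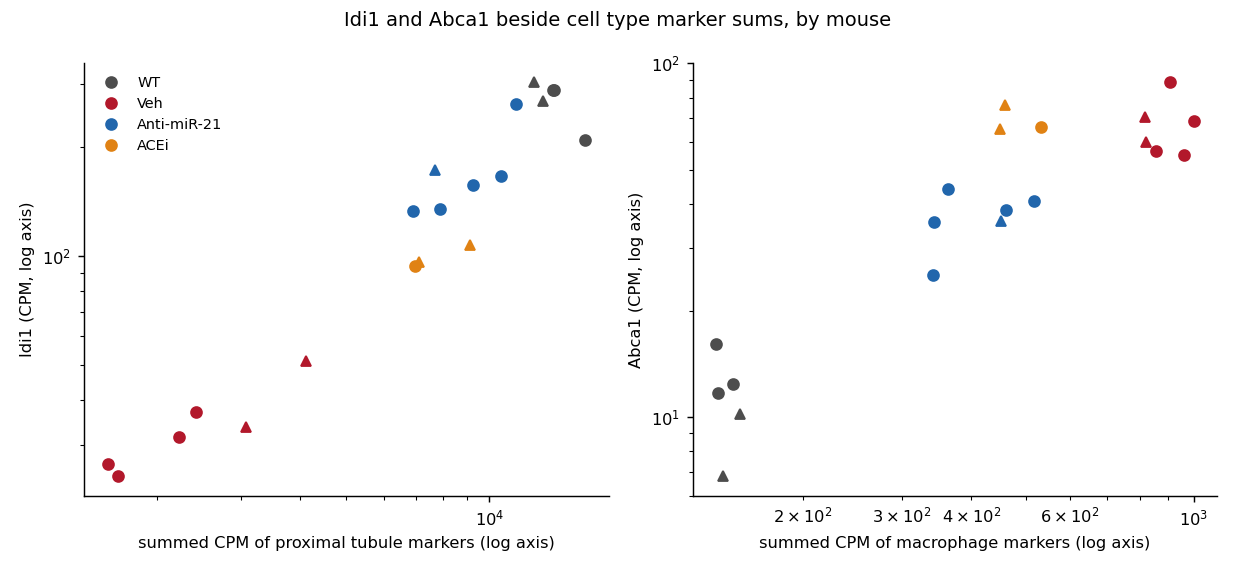
Idi1 against the summed proximal tubule markers (left) and Abca1 against the summed macrophage markers (right), in CPM on log axes, 1 point per mouse, circles for flow cell A and triangles for flow cell B. Veh mice hold the lowest Idi1 and proximal tubule values, and the 3 ACEi mice have Abca1 of 65.3 to 76.4 CPM at macrophage sums of 450 to 532.

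**Figure D3:**
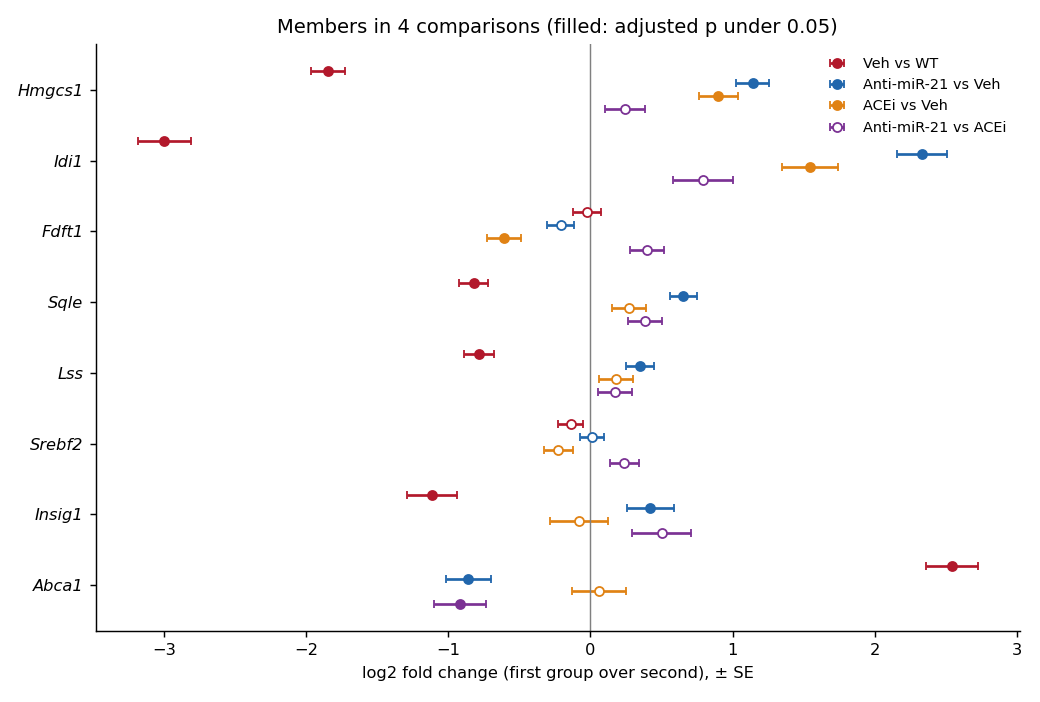
Log2 fold changes (first group over second, horizontal axis) with SE bars for the 8 genes in 4 comparisons, filled where the adjusted p was under 0.05. Hmgcs1 and Idi1 are left of 0 for Veh against WT and right of 0 for both treatments against Veh, and Abca1 is the single filled point of Anti-miR-21 against ACEi.

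Per transcript length, on the authors' FPKM scale, the 8 genes spanned a wide range. In WT the mean FPKM was 118 ± 11 for Hmgcs1, 78.7 ± 12 for Idi1, 40.9 ± 4.3 for Sqle, 21.7 ± 4.4 for Srebf2, 16.7 ± 6.0 for Insig1, 8.42 ± 1.5 for Fdft1, 6.29 ± 1.5 for Lss and 0.914 ± 0.25 for Abca1 (SD, n = 5 each). Neighbours in that order overlapped over mice for Srebf2 and Insig1, Insig1 and Fdft1, and Fdft1 and Lss. In Veh the order of the means changed, with Hmgcs1 at 49.2 ± 7.0, Sqle at 34.7 ± 4.3, Srebf2 at 25.8 ± 3.3 and Idi1 at 14.7 ± 3.4 FPKM, followed by Fdft1 at 12.5 ± 1.7, Insig1 at 11.6 ± 1.5, Abca1 at 8.11 ± 1.7 and Lss at 4.93 ± 0.58 (SD, n = 6 each). Idi1 thus went from the 2nd place to the 4th, and Abca1 from the last to the one before it. The authors marked the FPKM entries of Fdft1, Lss and Srebf2 as confounded with other genes.

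The DNA in front of these genes is shown because their control by sterols is read there. RefSeq (GRCm38.p6) gave a promoter for 6 of the 8, all but Sqle and Fdft1. The 250 bases before each start were searched on both strands for TCACNCCAC, a form of the sterol regulatory element, CACGTG, an E-box, CCAAT, the NF-Y box, and GGGCGG, the Sp1 box. The first was found in Hmgcs1 alone of the 6, from 137 to 129 bases before the RefSeq start, and in 1.05% of 32851 promoters. For Hmgcs1 that start lies upstream of the gene start given above, which is from the deposited annotation. The stretch around the element is chr13:119690169-119690267, plus strand, with the element in capitals.
Hmgcs1: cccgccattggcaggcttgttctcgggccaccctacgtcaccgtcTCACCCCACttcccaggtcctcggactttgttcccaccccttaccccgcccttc
CACGTG stood once before Insig1 and once before Abca1, and in 6.02% of all promoters, as shown in capitals for chr5:28071266-28071361 (plus strand) and chr4:53159992-53160087 (minus strand).
Insig1: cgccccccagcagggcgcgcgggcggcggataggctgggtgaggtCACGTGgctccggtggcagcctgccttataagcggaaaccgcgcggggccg
Abca1: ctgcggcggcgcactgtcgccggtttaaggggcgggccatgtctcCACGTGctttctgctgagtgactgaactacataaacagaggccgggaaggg
CCAAT was found before 5 of the 6, 3 times for Hmgcs1, 2 times for Idi1 and once each for Lss, Srebf2 and Insig1, and in 33.8% of all promoters. GGGCGG was found before all 6, and in 32.7% of all promoters. Matches of different motifs did not overlap. A match of letters is a description of the window, not a site in use.

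The treatment binds miR-21, and Srebf2 is the host of another microRNA, miR-33, known to act on Abca1 messages. Mature sequences from RefSeq (GRCm38.p6) are given with the seed, bases 2 to 8, in capitals, for chr11:86584120-86584141 (minus strand) and chr15:82198127-82198147 (plus strand, within Srebf2).
mmu-miR-21a-5p: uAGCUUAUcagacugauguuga
mmu-miR-33-5p: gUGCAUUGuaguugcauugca
The complement of the miR-21 seed, ATAAGCT, was in the longest annotated 3' UTR of none of the 8 genes (275 to 3156 bases) and in 7.14% of 20981 genes' 3' UTRs, or 16% of those within 20% of the length of Abca1's. The complement of the miR-33 seed, CAATGCA, occurred 3 times in the 3' UTR of Abca1 and in none of the other 7, and at least once in 15.4% of 3' UTRs of similar length. The 3 matches of Abca1 start at bases 135, 140 and 150 of the 3' UTR, and the first 2 overlap.
Abca1 first match: acactattCAATGCAatgcac
Abca1 last match: atgcacttCAATGCAacgaga
These libraries do not show the level of either mature microRNA. The Mir33 gene had a count of 0 in all 20 mice.

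The other enzymes of the pathway followed Hmgcs1 and Idi1 for the greater part. Of 21 synthesis enzymes from acetyl-CoA to cholesterol, the 5 above included, Veh mice had 18 lower than WT and none higher, beside 34% and 39% of all genes. The median log2 difference was -1.03 beside 0.069 over all genes. Cyp51, the demethylase of lanosterol, was at -2.92 ± 0.18 (adjusted p = 3e-11) and Mvd, which makes isopentenyl diphosphate, at -1.94 ± 0.11 (adjusted p = 1.5e-11). The 3 not called were Pmvk, Fdps and Fdft1.

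In Anti-miR-21, 17 of the 21 were higher than in Veh and none lower, beside 28.8% and 30.5% of all genes. The median was 0.63 beside -0.041 over all genes. Cyp51 rose by log2 2.12 ± 0.17 (adjusted p = 2.9e-08), Mvd by 1.22 ± 0.11 (adjusted p = 5e-08) and Nsdhl, a sterol dehydrogenase, by 1.07 ± 0.08 (adjusted p = 2.3e-08). Against WT, 16 of the 21 were still lower and none higher (19.8% and 23.9% of all genes), or 10 lower and none higher on library totals.

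In ACEi, 12 of the 21 were higher than in Veh and 3 lower (21% and 19.1% of all genes), with a median of 0.30 beside -0.049. Cyp51 was at 1.32 ± 0.20 (adjusted p = 4.1e-05) and Mvd at 1.07 ± 0.13 (adjusted p = 1.4e-05). Lower were Fdps, farnesyl diphosphate synthase (log2 -0.79 ± 0.16, adjusted p = 0.00065), Fdft1, as given above, and Pmvk, a mevalonate pathway kinase (log2 -0.32 ± 0.12, adjusted p = 0.044). All 21 were lower in ACEi than in WT (22.5% of all genes), but 15 on library totals, where the 6 not called included Sqle, Lss, Pmvk and Fdps. In the direct comparison of the treatments none of the 21 was called, with a median of 0.31 in favour of Anti-miR-21 and adjusted p of 0.061 at the lowest (Mvk, mevalonate kinase). On library totals alone, Veh mice had 12 of the 21 lower and 3 (Pmvk, Fdps, Fdft1) higher than WT, Anti-miR-21 mice had 11 higher and 3 lower than Veh, and ACEi mice 8 higher and 6 lower than Veh, with medians of all genes of 0.65, -0.38 and -0.32.

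**Figure D4:**
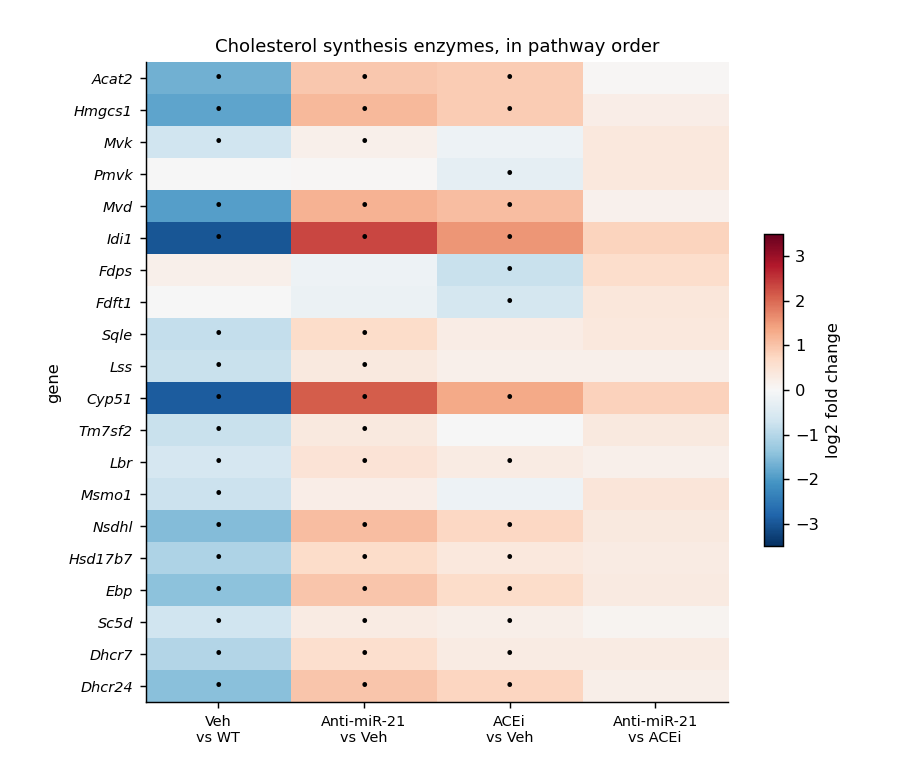
Log2 fold changes (colour, blue lower and red higher in the first group) of 20 cholesterol synthesis enzymes in pathway order, with a dot where the adjusted p was under 0.05. The Veh to WT column has 17 dots, all on lower genes, the Anti-miR-21 to Veh column 16 on higher genes, and the last column none.

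Among 10 genes of SREBP control, Veh mice had 6 lower than WT and none higher (34% and 39% of all genes), but 1 lower and 5 higher on library totals alone. Scap, which escorts SREBP-2, fell by 0.76 ± 0.08 and Insig2 by 0.58 ± 0.06 on the log2 scale (adjusted p = 4e-08 and 7.5e-08). On library totals these 2 genes were at -0.18 and 0.00, with the median of all genes at 0.65. Srebf1, the gene of SREBP-1, was at log2 0.14 ± 0.11 (adjusted p = 0.26). Both treatments had 5 of the 10 higher than Veh and none lower, beside 28.8% (Anti-miR-21) and 21% (ACEi) of all genes higher. Insig2 was at 0.43 ± 0.06 in Anti-miR-21 (adjusted p = 6.1e-06) and 0.37 ± 0.07 in ACEi (adjusted p = 0.00058). On library totals none of the 10 was higher than in Veh, and 5 were lower in Anti-miR-21 and 3 in ACEi.

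Genes around Abca1 gave a divided picture. Veh mice had 5 of 9 LXR and efflux genes higher and 3 lower than WT, beside 39% and 34% of all genes. Higher were Apoe, the lipoprotein ligand (log2 3.29 ± 0.21, adjusted p = 4e-11), Pltp, a phospholipid carrier (2.87 ± 0.21, adjusted p = 2e-10), Abca1, Abcg1, a second efflux pump (1.80 ± 0.21, adjusted p = 1.5e-07), and Lcat, which esterifies plasma cholesterol (0.82 ± 0.18, adjusted p = 0.00042). The receptor genes did not rise with them after TMM scaling. Nr1h3 (LXR alpha) was lower (log2 -1.21 ± 0.12, adjusted p = 1.5e-08), and Nr1h2 (LXR beta) was at 0.04 ± 0.07 (adjusted p = 0.60). On library totals Nr1h3 was still lower (log2 -0.63, adjusted p = 5.3e-06). Nr1h2 was called higher there (log2 0.63, adjusted p = 1.6e-07), with the median of all genes at 0.65.

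Abcg1 was lower in Anti-miR-21 than in Veh (log2 -0.84 ± 0.19, adjusted p = 0.00069) and at -0.28 ± 0.23 in ACEi (adjusted p = 0.35), and the direct test between the treatments gave -0.56 ± 0.23 (adjusted p = 0.26). Apoe was lower in both treated groups than in Veh, by -0.95 ± 0.18 in Anti-miR-21 and -1.16 ± 0.23 in ACEi (adjusted p = 0.00014 and 0.00056). Pltp was not called against Veh in either (log2 -0.06 and -0.37, adjusted p = 0.79 and 0.19), and stayed above WT by 2.81 and 2.50. Of the 9 genes, Anti-miR-21 had 3 higher and 4 lower than Veh (28.8% and 30.5% of all genes). ACEi had 3 higher and 1 lower (21% and 19.1%). Nr1h3 was higher in both (0.83 ± 0.12 and 0.72 ± 0.14, adjusted p = 4.1e-06 and 0.0004).

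Of 6 genes that form or break down oxysterols, Veh mice had 4 higher and 1 lower than WT, beside 39% and 34% of all genes. Of 7 genes of sterol storage and lysosomal release, 4 were higher and 2 lower. Ch25h, which makes 25-hydroxycholesterol, was log2 3.39 ± 0.25 higher in Veh than in WT (adjusted p = 2.2e-10). Cyp7b1, which breaks oxysterols down, was the 1 lower gene of the 6 (log2 -3.50 ± 0.42, adjusted p = 2.5e-07). Hsd3b7 and Cyp39a1, of the same 6, were higher (log2 1.21 and 0.51, adjusted p = 1.1e-09 and 0.0011). Ch25h was lower in Anti-miR-21 than in Veh (log2 -1.16 ± 0.20, adjusted p = 5.3e-05) and in ACEi (log2 -1.03 ± 0.25, adjusted p = 0.0032). Cyp7b1 was higher in Anti-miR-21 (log2 2.40 ± 0.40, adjusted p = 3.3e-05) and in ACEi (log2 2.32 ± 0.45, adjusted p = 0.00043). Of the 6 oxysterol genes, Anti-miR-21 mice had 1 higher and 4 lower than Veh (28.8% and 30.5% of all genes). ACEi mice had 1 higher and 3 lower (21% and 19.1%). Soat2, a cholesterol ester synthase, was at 2.83 ± 0.41 in Veh against WT (adjusted p = 3e-06), and Nceh1, an ester hydrolase, at -1.53 ± 0.11 (adjusted p = 1.1e-10). Over all 59 genes of these lists, of which 58 were tested, 46 were called in Veh against WT, 41 in Anti-miR-21 against Veh and 35 in ACEi against Veh, beside 73%, 59.2% and 40.1% of all genes tested. Abca1 was the 1 gene of the 58 called for the treatments against each other, beside 0.584% of all genes.

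**Figure D5:**
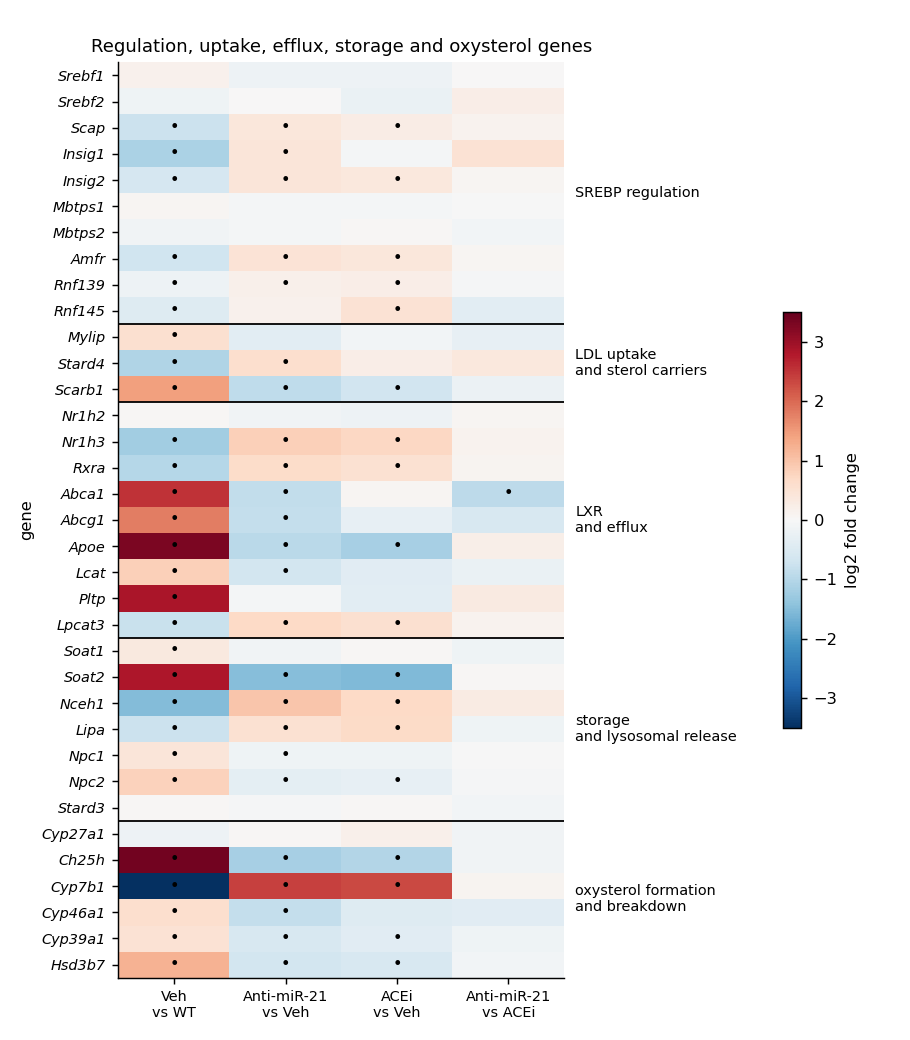
Log2 fold changes (colour, blue lower and red higher in the first group) of 35 regulation, uptake, efflux, storage and oxysterol genes, with a dot where the adjusted p was under 0.05. Apoe, Pltp, Abca1, Soat2 and Ch25h are the darkest red in the Veh to WT column, Cyp7b1 the darkest blue, and Abca1 holds the single dot of the last column.

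Within groups, some of the 8 genes varied together from mouse to mouse. After each gene's group mean was taken off the log2 CPM, Pearson's r over the 20 mice was 0.83 for Hmgcs1 and Idi1, 0.72 for Idi1 and Sqle, 0.70 for Hmgcs1 and Sqle, 0.64 for Lss and Srebf2, and -0.50 for Idi1 and Abca1. Spearman's rho was lower for the first 3 pairs, at 0.67, 0.44 and 0.55, and was 0.60 and -0.46 for the other 2. The points share libraries and flow cells, and these values are descriptions. Fdft1 had r between -0.27 and 0.38 to each of the other 7. Low values were not particular to Fdft1, as Lss was at -0.06, -0.04 and 0.28 to Hmgcs1, Idi1 and Sqle. Of 12515 protein-coding genes outside the lists whose mean reached 1 log2 CPM, those most like the mean course of the 5 enzymes in this sense were Osbpl8 (r = 0.82), Tfrc (0.81), Myo15b (0.80), Cluh (0.78) and C1galt1 (0.78). By rank correlation C1galt1 came 1st and Osbpl8 9th, and over the 15 Col4a3-/- mice alone the 5 came 26th to 356th, so that the order is loose.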

How the data were processed

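Paired-end reads of kidney RNA were mapped by the authors to GRCm38 in OmicSoft software. The deposited tables hold, per Ensembl gene, an estimated count without normalization, and, for mostly UCSC gene models, FPKM normalized for length and library total. Of the positive deposited counts, 27.9% are not whole, and all were rounded. Of the libraries in the FPKM table, 3 matched no labelled mouse and were not used. Groups came from the labels, and nothing says whether libraries of a group shared a litter or day.

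Genes passing filterByExpr (minimum count 10, total 15) were tested with edgeR 4.0.16 (quasi-likelihood, TMM, R 4.3.3) in 1 model over all 20 mice, with Benjamini-Hochberg adjustment over 17622 genes and a threshold of 0.05. Standard errors are the log2 fold change over the root of F. DESeq2 1.42.0 and limma 3.58.1, on log2(FPKM + 1) and log2(FPKM + 0.1), served as alternatives, besides other scalings, filters, flow cell as a term, and leaving out each mouse. Scripts were tested on simulated data. Figures used matplotlib in Python. 3' UTRs came from GENCODE M21, and the named genes are the 8, pathway genes that passed or were references, and the 5 closest profiles. Of the genes outside the 8, 4 are not reported here. The 8 genes and all lists were chosen with earlier results of these data known. Counting error is small at this depth, since the lowest of the 8 genes, Abca1 in WT, had at least 6.80 CPM in every mouse.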

Additional observations from a re-analysis of the deposited data

Results flagged for a closer look

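In 24 groups of 4 or more mice (8 genes, 3 groups), the highest or lowest mouse was set against the others by Dixon's test, and 3 stood apart. Chance alone marks about 1 group in 20. Idi1 was 263 CPM in Anti-miR-21 mouse A22, with the next mouse at 173 CPM. Sqle was 103 CPM (102.7) in Veh mouse A16, with the next at 77.1 CPM. Lss was 42.2 CPM in WT mouse A6, with the next at 28.9 CPM.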

How the results depend on the processing

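Outside the leave-one-out fits, 620 of 680 values were kept. Of the kept values, 123 are counts of called genes that stayed within a fixed ratio of the main count. The other 497 are fold changes of single members that kept their side of the threshold, called ones with their direction. Of these, 25 changed sign while called in neither fit, with sizes of at most 0.27 on the log2 scale (Fdft1 in Veh and Anti-miR-21 against WT, Srebf2 in Veh against WT and Anti-miR-21 against Veh and WT, Sqle in Anti-miR-21 against WT, Lss and Abca1 in ACEi against Veh). Anti-miR-21 against ACEi is the weakest comparison: the 1 member called, Abca1, was also the 1 pathway gene called. Counts of pathway genes here include the members. The counts of members and pathway genes were 2 and 7 with DESeq2, and 0 and 0 with limma on log2(FPKM + 0.1). With flow cell as a term 2 pathway genes were called, and 3 with only the groups compared. Leaving out 1 mouse gave 0 to 1 members and 0 to 2 pathway genes. ACEi against WT had 8 members called, 5 on library totals and 4 with limma at either pseudocount. Anti-miR-21 against WT had 5 members and 37 pathway genes called, and 3 and 23 with limma at either pseudocount. Differences called in the alternative also turned direction for Fdft1 in Veh against WT (log2 0.56 on library totals, 0.52 and 0.57 with limma at pseudocounts 1 and 0.1) and for Srebf2 in Veh against WT (0.44) and Anti-miR-21 against Veh (-0.33) on library totals. Library totals displaced the median of all genes by 0.65 in Veh against WT, and less their median Fdft1 was at -0.10 and Srebf2 at -0.21 there. With limma, Fdft1 less the median stayed higher in Veh than in WT, at 0.30 and 0.13 for pseudocounts 1 and 0.1. No paired analysis was possible because each mouse has a replicate number of its own. Without the 4 mice whose adipocyte sum was above 200 CPM, an alternative chosen after seeing the data, Veh against WT, Anti-miR-21 against Veh and ACEi against Veh had 6, 5 and 3 members called, and Insig1 alone of the members lost a call (log2 0.27, adjusted p = 0.34, against 0.035 for all mice). The causes were not tested. With 3 ACEi mice, small differences from ACEi cannot be seen at this size.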
